A study of Homo sapiens with 6 samples.

Results

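The semaphorins, plexins and neuropilins were followed in CCD18Co cells after the knockdown of *LTBP2*. The members were the protein-coding rows of the deposited count table whose symbol is that of a vertebrate semaphorin (*SEMA3A* to *SEMA7A*) or of a plexin (*PLXNA1* to *PLXND1*), with *NRP1* and *NRP2* added. They are 31 of the 60663 genes in the table and comprise 20 semaphorins, 9 plexins and 2 neuropilins. CCD18Co is an established line of human colon fibroblasts, and all 6 libraries came from this line. Cells were transfected for 6 h with siRNAs against *LTBP2* (siLTBP2, n = 3) or with a non-target control (siNT, n = 3), both delivered by lipofection, and were frozen 48 h after transfection. The comparison of siLTBP2 with siNT asks how these fibroblasts change when they lose most of the transcript of *LTBP2*, an extracellular matrix protein of the latent TGF-β binding protein family. The labels do not say whether the replicates were separate cultures, so the p-values measure the spread between these libraries, which may be technical. One siRNA reagent against *LTBP2* and one line were used, and effects of the siRNAs on other transcripts cannot be told apart from effects of *LTBP2* loss.

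The total count per library lay between 44663424 and 53576899. Values are in CPM, the count of a gene scaled to a common library size with TMM factors. *LTBP2* was at 25.0, 23.1 and 21.2 CPM in siNT and at 6.49, 8.61 and 6.00 CPM in siLTBP2, so the groups did not overlap. Its level in siLTBP2 was 30.4% of that in siNT (log2 fold change -1.72, standard error 0.15, adjusted p = 6.6e-05). The 9 fibroblast markers were all tested, and their summed level was 9933 to 13204 CPM in siNT and 10067 to 14406 CPM in siLTBP2. One of them, *PDGFRB*, was lower. Epithelial markers summed to at most 0.0918 CPM, immune markers to at most 0.317 CPM and markers of neurons and glia to at most 0.380 CPM in any library. The 4 endothelial markers summed to 67.4 to 83.6 CPM in siNT and 59.9 to 74.3 CPM in siLTBP2, nearly all of it from *TEK*, with *PECAM1* and *CDH5* near 0. Neither of the 2 that were tested, *TEK* and *VWF*, passed. Of 3 smooth muscle markers *ACTG2* alone was tested and was higher (39.9 to 41.8 CPM in siNT, 53.1 to 71.8 CPM in siLTBP2), with *MYH11* and *DES* near 0. The part of that change in the results that follow was not tested. In bulk libraries such as these, fewer cells with a transcript cannot be told apart from less of it per cell.

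Semaphorins are extracellular cues, first known for steering axons, that are secreted (class 3), span the membrane (classes 4 to 6) or are held at the surface by a lipid anchor (class 7). Their receptors are the plexins, whose cytoplasmic part acts on small GTPases of the Ras and Rap families and thereby on integrin adhesion and the cytoskeleton. Most class 3 semaphorins cannot bind a plexin tightly by themselves and use a neuropilin as the ligand-binding subunit of the complex. In connective tissue the system is known for its part in cell migration, vessel patterning and fibrosis.

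Transcripts of ligands and receptors moved in both directions. *SEMA7A*, *PLXNA4* and *NRP1* rose more than 2-fold in siLTBP2, and *SEMA3D* and *SEMA4G* fell more than 2-fold. Of the 31 members, 27 had enough counts to be tested. Taking an adjusted p below 0.05 as passing the test, 12 of these 27 passed (44.4%), whereas 19.3% of the 16920 genes tested did so. There were 7 members higher in siLTBP2, against 9.76% of all genes tested, and 5 lower, against 9.51%. Under the stricter rule of more than 2-fold change at an adjusted p below 0.01, called deregulated here, 3 members were higher (1.29% of all genes) and 2 lower (1.27% of all genes). In 15 of the 27 (55.6%) the libraries of the groups did not overlap, as in 37% of all genes tested. The median log2 fold change of the tested members was 0.11, near the -0.01 of all genes, while the median of its absolute value was 0.42, against 0.23. These shares describe the families and were given no test of their own. The members were chosen with earlier results of these data known. All members are protein-coding, whereas the genes tested also include RNAs that code for no protein, so the shares are not on quite the same basis.

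**Figure D1:**
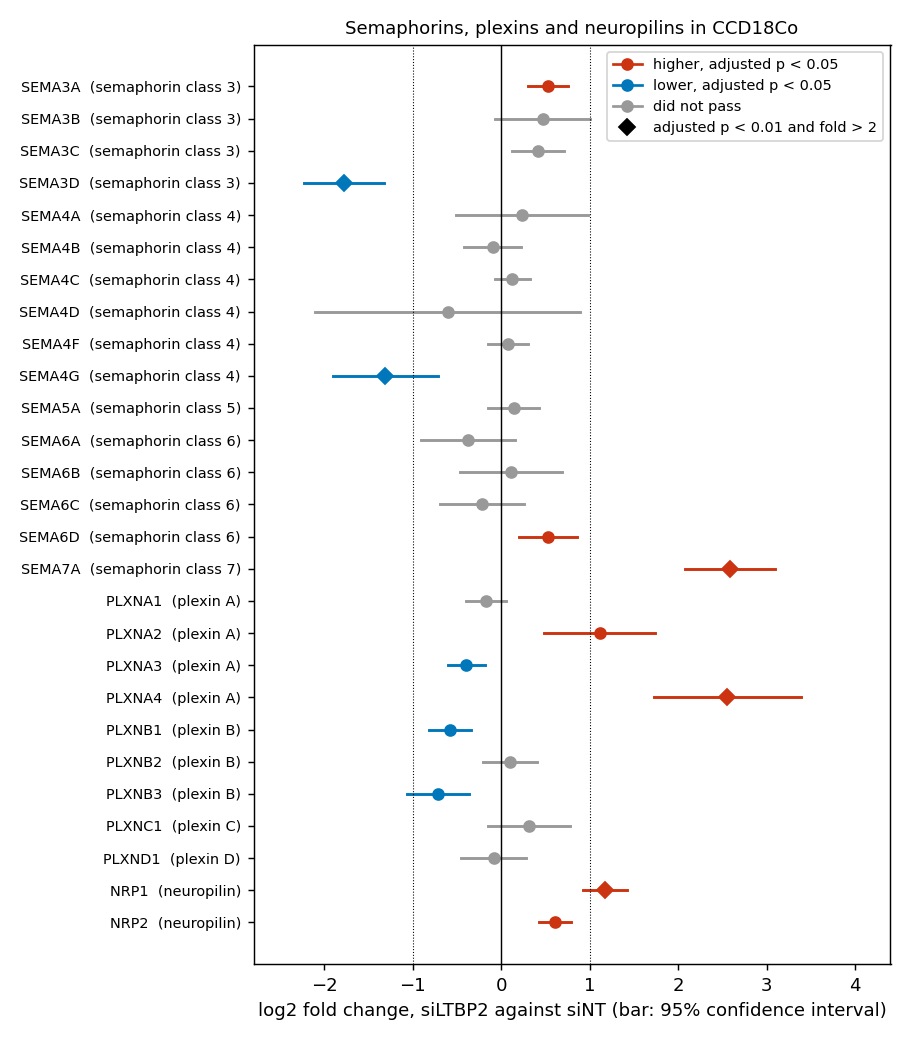
The log2 fold change of siLTBP2 against siNT (horizontal axis) is plotted for the 27 tested members, one per line in order of class, with bars for the 95% confidence interval, colour for the direction of calls at an adjusted p below 0.05, diamonds for deregulated members and dotted lines at a 2-fold change. *SEMA7A* (2.59) and *PLXNA4* (2.56) lie far to the right, *SEMA3D* (-1.78) and *SEMA4G* (-1.31) to the left, and 15 members in grey did not pass; the other 4 members were not tested and are not drawn.

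The members with the largest changes were *SEMA7A*, *PLXNA4* and *SEMA3D*. *SEMA7A* lies on the minus strand of chromosome 15 (GRCh38, 74409289 to 74433958) with 14 exons in its canonical transcript, *SEMA3D* on the minus strand of chromosome 7 (84995553 to 85187056) with 19 exons, and *PLXNA4* on the minus strand of chromosome 7 (132123340 to 132648688) with 32 exons. Their promoters are shown to let their composition be compared. The sequences are from RefSeq (GRCh38.p14), each running from 250 bases before the transcription start to 50 bases after it on the strand of the gene. Capitals mark a GC box (GGGCGG) or a SMAD-binding word (CAGAC) on either strand. The windows were also searched on both strands for a TATA box (TATAAA), an AP-1 word (TGANTCA) and a TEAD word (GGAATG), with no match in these 3.
*SEMA7A* promoter, chr15:74433909-74434208, minus strand: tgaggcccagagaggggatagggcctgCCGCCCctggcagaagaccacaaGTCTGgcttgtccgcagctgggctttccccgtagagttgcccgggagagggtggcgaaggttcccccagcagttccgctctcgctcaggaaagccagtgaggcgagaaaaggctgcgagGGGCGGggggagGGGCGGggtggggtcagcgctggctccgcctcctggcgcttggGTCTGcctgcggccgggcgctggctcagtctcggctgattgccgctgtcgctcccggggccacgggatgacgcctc
*SEMA3D* promoter, chr7:85187007-85187306, minus strand: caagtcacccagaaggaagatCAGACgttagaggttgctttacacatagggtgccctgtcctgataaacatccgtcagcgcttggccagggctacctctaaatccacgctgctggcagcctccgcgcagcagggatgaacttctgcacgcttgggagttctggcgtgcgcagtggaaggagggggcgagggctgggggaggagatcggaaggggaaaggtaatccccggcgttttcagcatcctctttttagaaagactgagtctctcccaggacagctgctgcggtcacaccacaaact
*PLXNA4* promoter, chr7:132576421-132576720, minus strand: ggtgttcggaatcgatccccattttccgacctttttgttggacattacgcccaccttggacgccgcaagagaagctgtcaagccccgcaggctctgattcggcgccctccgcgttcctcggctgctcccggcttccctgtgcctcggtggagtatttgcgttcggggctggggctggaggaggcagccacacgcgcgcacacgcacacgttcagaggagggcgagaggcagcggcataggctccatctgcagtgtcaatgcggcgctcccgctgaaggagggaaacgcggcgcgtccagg
The *SEMA7A* window had 70% G and C, GC boxes at -223, -81 and -69 from the start, and CAGAC at -200 and -26. Another *SEMA7A* promoter, 254 bases from the canonical start and not shown, had 77.3% G and C, 5 GC boxes, and CAGAC at -46 and -1. The *SEMA3D* window had 57% G and C and a single CAGAC at -229, and the *PLXNA4* window had 64.3% G and C and none of the words. The *PLXNA4* window is that of the canonical transcript, whose start lies inside the gene span given above. Both common words are widespread, with GGGCGG in 45.0% and CAGAC in 45.3% of the 35116 RefSeq promoters, so their presence here is a description only. Of the 27 members with a promoter in the table, 23 held GGGCGG in the promoter nearest the canonical start. In that promoter 9 held CAGAC, 3 GGAATG, and 0 either TATAAA or TGANTCA. Among alternative promoters of members, one of *SEMA3E* held TATAAA (at -160) and one of *PLXNC1* held TGANTCA (at -91). TATAAA was in 11.5% and TGANTCA in 7.71% of all promoters. These shares count alternative promoters too, so the member counts are not on the same basis and cannot be compared with them.

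*SEMA7A*, the only class 7 semaphorin, is a GPI-anchored protein that binds the integrin α1β1 as well as PLXNC1, and it is known as a mediator of TGF-β-driven fibrosis in the lung. It was the member with the largest rise. Its level was 8.20, 8.18 and 10.2 CPM in the siNT libraries, where 379, 404 and 550 reads were counted, and 37.9, 46.2 and 75.8 CPM in the siLTBP2 libraries, from 1652, 2184 and 3994 reads. The groups were far apart, and the siLTBP2 libraries were spread more widely among themselves, with replicate 3 well above the other 2. The mean rose from 8.86 ± 1.16 to 53.3 ± 19.9 CPM (SD, n = 3), a 6.01-fold increase (log2 fold change 2.59, standard error 0.23, 95% confidence interval 2.08 to 3.09, adjusted p = 7.5e-05).

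The receptors of *SEMA7A* did not rise to the same extent. *PLXNC1*, its plexin, was at 0.995, 1.13 and 1.09 CPM in siNT and at 1.35, 1.50 and 1.16 CPM in siLTBP2. These levels are low and separated by only a narrow gap, and the difference did not pass the test (log2 fold change 0.31, 95% confidence interval -0.16 to 0.78, adjusted p = 0.348). It shares 177 exonic bases with *CEP83* on the opposite strand, where reads of the 2 genes cannot be told apart if they were counted without strand. *ITGB1*, the integrin β1 chain, was at 677, 704 and 763 CPM in siNT and rose to 1343, 1315 and 1347 CPM in siLTBP2 (log2 fold change 0.90, standard error 0.09, adjusted p = 0.000176). *ITGA1*, the α1 chain, moved the other way, from 113, 103 and 110 CPM to 77.2, 81.6 and 74.9 CPM (log2 fold change -0.48, standard error 0.08, adjusted p = 0.00235). The 2 chains of the *SEMA7A* integrin thus passed the test in opposite directions, each without overlap between groups.

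**Figure D2:**
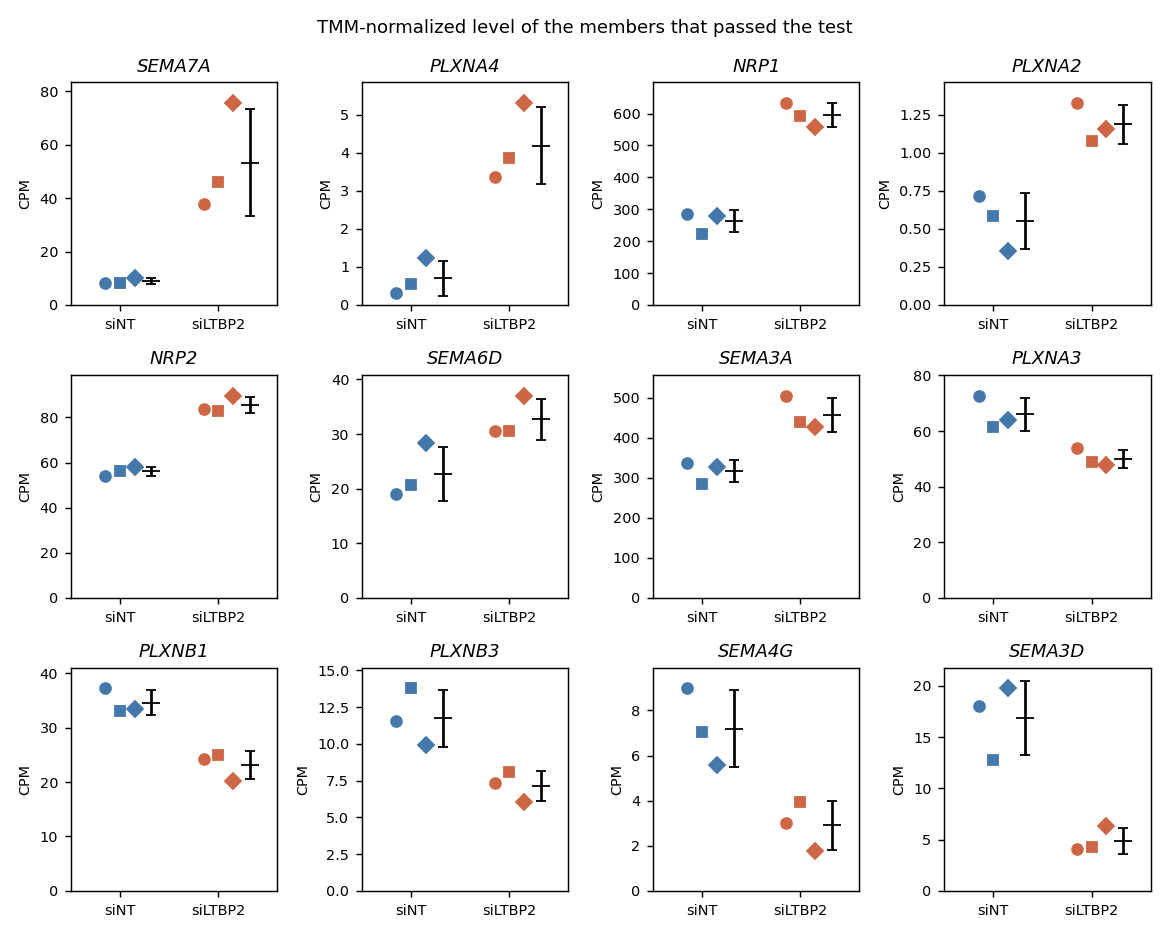
Each panel shows the TMM-normalized level in CPM (vertical axis, from 0) of one of the 12 members that passed the test, with siNT on the left and siLTBP2 on the right; circle, square and diamond are replicates 1, 2 and 3, and the bar at the side is the mean ± SD. The groups do not overlap in any of the 12 panels, and the *SEMA7A* libraries of siLTBP2 run from 37.9 to 75.8 CPM.

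Among the secreted class 3 semaphorins, *SEMA3D* fell and *SEMA3A* rose. *SEMA3D*, which signals through neuropilin 1 and PLXND1 in the vasculature, was at 18.0, 12.8 and 19.8 CPM in siNT and at 4.08, 4.25 and 6.34 CPM in siLTBP2. The highest siLTBP2 library was thus well under the lowest siNT library. Its mean fell from 16.9 ± 3.63 to 4.89 ± 1.26 CPM (SD, n = 3), 3.44-fold lower (log2 fold change -1.78, standard error 0.21, adjusted p = 0.000289). *SEMA3A*, the classical ligand that collapses growth cones through neuropilin 1 and A-type plexins, was at 338, 285 and 328 CPM in siNT and at 506, 439 and 428 CPM in siLTBP2. It rose 1.44-fold without overlap between groups (log2 fold change 0.53, standard error 0.10, adjusted p = 0.00563).

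*SEMA3C*, which binds both neuropilins and PLXND1, lay at 127, 95.4 and 130 CPM in siNT and at 148, 140 and 181 CPM in siLTBP2. Its groups did not overlap either, yet it missed the threshold (log2 fold change 0.42, 95% confidence interval 0.12 to 0.71, adjusted p = 0.052), and it passed under 7 of the 14 alternatives tried. *SEMA3B* ranged from 6.23 to 10.8 CPM in siNT and from 7.55 to 13.5 CPM in siLTBP2, with overlap and an adjusted p of 0.212. *SEMA3E*, *SEMA3F* and *SEMA3G* were not tested, since no library had more than 4 reads of any of them. *SEMA3A*, *SEMA3C*, *SEMA3D* and *SEMA3E* all lie on the long arm of chromosome 7, with *SEMA3E* and *SEMA3A* between *SEMA3C* and *SEMA3D*. Within that stretch the neighbours *SEMA3A* (83955777 to 84492724) and *SEMA3D* (84995553 to 85187056) moved in opposite directions, while *SEMA3C* (80742538 to 80922359) did not pass and *SEMA3E* (83363238 to 83649139) had 1 read over the 6 libraries.

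Both neuropilins rose. *NRP1*, the ligand-binding subunit for SEMA3A and a co-receptor of VEGF, was at 286, 223 and 280 CPM in siNT and at 634, 591 and 558 CPM in siLTBP2. All 3 siLTBP2 libraries were close to each other and far above siNT. The mean went from 263 ± 34.5 to 594 ± 38.2 CPM (SD, n = 3), a 2.26-fold rise (log2 fold change 1.18, standard error 0.11, adjusted p = 0.000109). *NRP2*, the preferred neuropilin of SEMA3F, rose 1.53-fold, from 53.9, 56.1 and 58.1 CPM to 83.7, 83.0 and 89.7 CPM (log2 fold change 0.61, standard error 0.08, adjusted p = 0.00062). *NRP1* lies on the minus strand of chromosome 10 (33177492 to 33336262) and *NRP2* on the plus strand of chromosome 2 (205681990 to 205798133).

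The other ligands of the neuropilins did not pass the main test. Of 7 such growth factor genes listed, all 7 were tested and 0 passed edgeR's quasi-likelihood test, with 1 at an unadjusted p below 0.05 (*VEGFC*). Of all genes tested, 19.3% passed, and 7 genes are too few to be set against that share. DESeq2 also passed 0. *VEGFC* passed the likelihood ratio test, the test with no filter and the test without siNT replicate 3, and *VEGFA* passed without siLTBP2 replicate 3. With the replicate number as a block, 3 of the 7 passed (*VEGFA*, *VEGFC* and *TGFB1*), where the share of all genes was not taken. *VEGFA*, the endothelial growth factor that binds NRP1, was at 203, 185 and 186 CPM in siNT and at 249, 230 and 189 CPM in siLTBP2 (log2 fold change 0.22, 95% confidence interval -0.02 to 0.46, adjusted p = 0.189). *VEGFC*, a lymphatic growth factor that binds NRP2, was at 37.3, 27.3 and 50.8 CPM and at 49.5, 48.1 and 73.8 CPM (log2 fold change 0.57, 95% confidence interval 0.09 to 1.05, adjusted p = 0.091). In *VEGFA* the lowest siLTBP2 library lay among the siNT libraries, and in *VEGFC* the groups overlapped as well.

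Of the A-type plexins, the partners of neuropilins and of class 6 semaphorins, *PLXNA4* and *PLXNA2* rose, *PLXNA3* fell and *PLXNA1* did not pass. *PLXNA4*, known from the guidance of sensory and sympathetic axons, rose from 0.324, 0.547 and 1.22 CPM in siNT to 3.37, 3.85 and 5.31 CPM in siLTBP2. Few reads lie behind these values, with 15, 27 and 66 in siNT and 147, 182 and 280 in siLTBP2, and the siNT libraries were themselves widely spread, though all below the siLTBP2 libraries. The increase was 5.88-fold (log2 fold change 2.56, standard error 0.38, adjusted p = 0.00115). Without siNT replicate 3, the siNT library with the most reads, the log2 fold change was 3.25, and over the 6 fits that left out a library it ran from 2.22 to 3.25. It was not deregulated without siNT replicate 2, where the log2 fold change was 2.40 and the adjusted p 0.0127. *PLXNA2* was at 0.714, 0.587 and 0.352 CPM in siNT and at 1.33, 1.08 and 1.16 CPM in siLTBP2. Its mean level per length was the lowest of the plexins, though in siNT it did not differ from that of *PLXNA4* beyond their spread. *PLXNA2* rose 2.17-fold (log2 fold change 1.12, standard error 0.28, adjusted p = 0.0198). Its call was lost in 3 of the 6 fits that left out a library (siNT replicate 2, siNT replicate 3 or siLTBP2 replicate 1).

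*PLXNA3* and *PLXNA1* are the abundant A-type plexins of these cells. *PLXNA3* fell from 72.8, 61.3 and 63.8 CPM to 53.7, 48.7 and 47.7 CPM (log2 fold change -0.40, standard error 0.09, adjusted p = 0.0146), a call lost without siNT replicate 1 or siLTBP2 replicate 2. *PLXNA1* ranged from 136 to 172 CPM in siNT and from 131 to 150 CPM in siLTBP2, with overlap and an adjusted p of 0.287. The 2 higher A-type plexins were thus those at low levels, and the lower one was among those at high levels.

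The B-type plexins, receptors of class 4 semaphorins that act on RhoA through PDZ-RhoGEF and LARG, were lower or did not pass. *PLXNB1* fell from 37.2, 33.1 and 33.4 CPM to 24.3, 25.0 and 20.2 CPM (log2 fold change -0.58, standard error 0.11, adjusted p = 0.00436). *PLXNB3*, the receptor of SEMA5A, fell from 11.6, 13.8 and 9.90 CPM to 7.32, 8.08 and 6.05 CPM (log2 fold change -0.72, standard error 0.16, adjusted p = 0.00997). *PLXNB2* was by far the most abundant plexin, between 378 and 475 CPM in siNT and between 358 and 511 CPM in siLTBP2, and its groups overlapped (log2 fold change 0.10, adjusted p = 0.686). *PLXND1*, the vascular plexin that binds SEMA3E without a neuropilin, was at 30.9, 37.6 and 29.7 CPM in siNT and at 31.7, 37.9 and 22.9 CPM in siLTBP2. Here too the groups overlapped (log2 fold change -0.09, 95% confidence interval -0.45 to 0.28, adjusted p = 0.771).

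The 6 class 4 semaphorins were all tested, and *SEMA4G* alone passed (16.7%, near the 19.3% of all genes tested). *SEMA4G*, a ligand of PLXNB2, fell from 8.97, 7.05 and 5.56 CPM to 3.01, 3.93 and 1.78 CPM, 2.48-fold lower (log2 fold change -1.31, standard error 0.27, adjusted p = 0.00695). Its exons share 1215 bases with *MRPL43* on the opposite strand, a gene with a mean of 2870 counts. There, reads of the 2 genes cannot be told apart if they were counted without strand (log2 fold change of *MRPL43* -0.15, adjusted p = 0.219). The remaining class 4 genes had log2 fold changes between -0.61 (*SEMA4D*) and 0.23 (*SEMA4A*), and their adjusted p-values were at least 0.379. *SEMA4D*, the main ligand of PLXNB1, had 90, 55 and 18 reads in siNT and 61, 34 and 7 in siLTBP2. The libraries of each group differed widely from each other, and the 95% confidence interval of its log2 fold change ran from -2.11 to 0.89. In both groups the reads fell from replicate 1 to replicate 3. With the replicate number as a block in the quasi-likelihood test, the log2 fold change was -0.66 and it did not pass either (adjusted p = 0.053).

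In classes 5 and 6, *SEMA6D* was the only gene to pass. That is 25% of the 4 tested in class 6 and 0% of the 1 tested in class 5, against 19.3% of all genes tested. *SEMA6D*, a transmembrane ligand of PLXNA1 known from heart development, rose from 19.1, 20.6 and 28.3 CPM to 30.6, 30.5 and 37.1 CPM (log2 fold change 0.53, standard error 0.15, adjusted p = 0.0308). The gap between its highest siNT and lowest siLTBP2 library was small, and the call was lost in 4 of the 6 fits that left out a library (siNT replicate 1 or 2, siLTBP2 replicate 2 or 3). *SEMA5A*, a transmembrane ligand with thrombospondin repeats, was abundant, between 205 and 256 CPM in siNT and between 210 and 283 CPM in siLTBP2, with overlap and an adjusted p of 0.509. *SEMA6A*, *SEMA6B* and *SEMA6C* were at 2.07 to 8.54 CPM over all libraries, with log2 fold changes of -0.38, 0.11 and -0.21 and adjusted p-values of 0.317, 0.824 and 0.543. *SEMA5B* had 1 read over the 6 libraries and was not tested.

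To compare genes with each other, CPM were divided by the exon length in kilobases of the gene in GENCODE 44. On this scale *SEMA3A* had the highest level of the semaphorins in both groups, at 34.2 ± 3.01 CPM per kb in siNT and 49.4 ± 4.57 in siLTBP2 (SD, n = 3). *SEMA3C* and *SEMA5A* followed, at 19.2 ± 3.10 and 19.1 ± 2.16 CPM per kb in siNT, and did not differ from each other beyond their spread. *SEMA7A* moved from the 8th place among the semaphorins, at 2.33 ± 0.306 CPM per kb, to the 4th, at 14.0 ± 5.24, and *SEMA3D* from the 9th to the 11th, from 2.04 ± 0.440 to 0.592 ± 0.152. In siNT *SEMA7A* and *SEMA3D* therefore stood at levels that did not differ beyond their spread, and in siLTBP2 they were more than 10-fold apart in every library.

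*SEMA7A* made up 2.03%, 2.31% and 2.65% of the summed semaphorin level per length in siNT and 7.24%, 9.20% and 14.7% in siLTBP2. The summed level itself was 100 ± 6.60 CPM per kb in siNT and 135 ± 2.84 in siLTBP2 (SD, n = 3), with no overlap between groups. The plexin sum was 85.6 ± 8.73 and 84.9 ± 11.3 CPM per kb, a difference well within its spread, and *PLXNB2* gave 66.6% of it in siNT and 71.6% in siLTBP2. The neuropilin sum, 26.9 ± 2.98 CPM per kb in siNT and 57.7 ± 3.11 in siLTBP2, was the one of the 3 family sums with the largest ratio between groups, and *NRP1* gave 84.9% and 89.3% of it. *PLXNA4*, *PLXNA2* and *PLXNC1* were each under 0.3 CPM per kb on average in both groups.

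**Figure D3:**
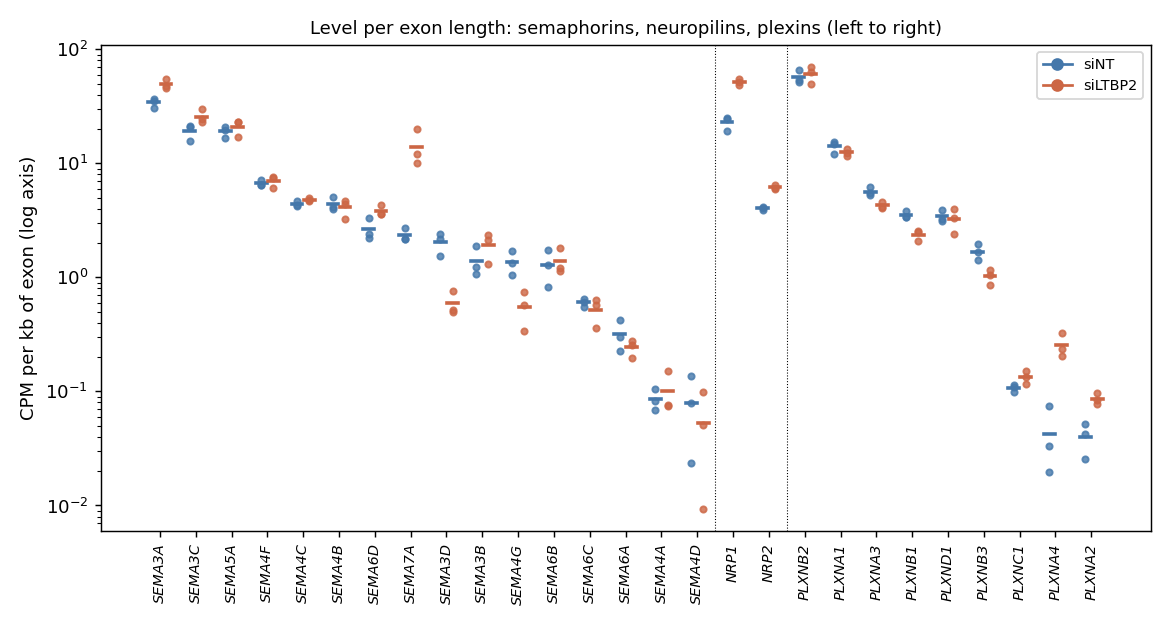
Levels per exon length (CPM per kb, logarithmic axis) are shown for the 27 tested members in siNT (blue) and siLTBP2 (orange), with a point for each library and a bar for the group mean. *SEMA3A*, *PLXNB2* and *NRP1* lead their families, *SEMA7A* climbs from 2.33 to 14.0 CPM per kb on average, and *PLXNA4* stays under 0.4 CPM per kb in every library.

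Ligands were then set against their receptors. From a list of 25 known pairs, 21 had both genes tested, and the log2 ratio of ligand to receptor CPM was taken within each library, which makes it nearly independent of how libraries are scaled. In 6 pairs the ratio was higher in all siLTBP2 libraries than in all siNT libraries, in 9 it was lower in all, and in 6 the groups overlapped. For each of the 15 without overlap the exact permutation test (two-sided) gave p = 0.1, the smallest value that 3 libraries against 3 can give, and 0.14 after adjustment over the 21 pairs, so no pair could pass a threshold of 0.05. Pairs that share a gene are not independent of each other, and several reuse *NRP1*, *PLXNA4* or *SEMA3D*, whose own groups did not overlap. Of single genes tested, 37% had no overlap between groups, and the share over other gene pairs was not taken. The counts of pairs are therefore a description only. A ratio of transcripts says nothing of how much protein is bound.

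The ratio of *SEMA7A* to *PLXNC1* was 2.99, 2.81 and 3.17 on the log2 scale in siNT and 4.77, 4.91 and 5.98 in siLTBP2, a difference of 2.23 between the means. Against *ITGB1*, which itself rose, the difference for *SEMA7A* was smaller, 1.62. No ratio was taken against *ITGA1*, the other chain of that integrin, which fell (log2 fold change -0.48). For *SEMA3D* and *NRP1*, where the ligand fell and the receptor rose, the log2 ratio was -3.98, -4.12 and -3.82 in siNT and -7.26, -7.11 and -6.45 in siLTBP2, a difference of -2.96. The ratio of *SEMA3D* to *PLXND1* differed by -1.67, nearly all of it from the ligand.

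*SEMA3A* and *NRP1* both rose, *NRP1* by more, and their ratio passed from 0.24, 0.35 and 0.23 in siNT to -0.33, -0.43 and -0.38 in siLTBP2. Per exon length too, *SEMA3A* was above *NRP1* in every siNT library. In siLTBP2 it was slightly under *NRP1* in every library, but their means did not differ beyond their spread (49.4 ± 4.57 and 51.6 ± 3.31 CPM per kb, SD, n = 3). Toward *PLXNA1* the ratio of *SEMA3A* was higher by 0.70 and toward *PLXNA4* it differed by -2.15. *SEMA3C* to *NRP1* differed by -0.76, while *SEMA3C* to *NRP2* (-0.19) and *SEMA3B* to *NRP2* (-0.15) overlapped between groups.

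Among the membrane-bound ligands, the widest differences were those of the class 6 genes to *PLXNA4*, at -3.02 for *SEMA6A* and -2.54 for *SEMA6B*, in which the plexin accounts for most of the change. *SEMA6A* to *PLXNA2* differed by -1.44 and *SEMA4G* to *PLXNB2* by -1.43. Higher ratios were seen for *SEMA5A* to *PLXNB3* (0.84), *SEMA4A* to *PLXNB1* (0.74) and *SEMA6D* to *PLXNA1* (0.71). In the pairs of *SEMA5A* and *SEMA4A* the fall of the plexin accounts for most of the change, and *SEMA4A* had only 22 to 48 reads per library. The pairs of *SEMA4D* with *PLXNB1* and *PLXNB2*, and of *SEMA4C* with *PLXNB2*, overlapped between groups.

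**Figure D4:**
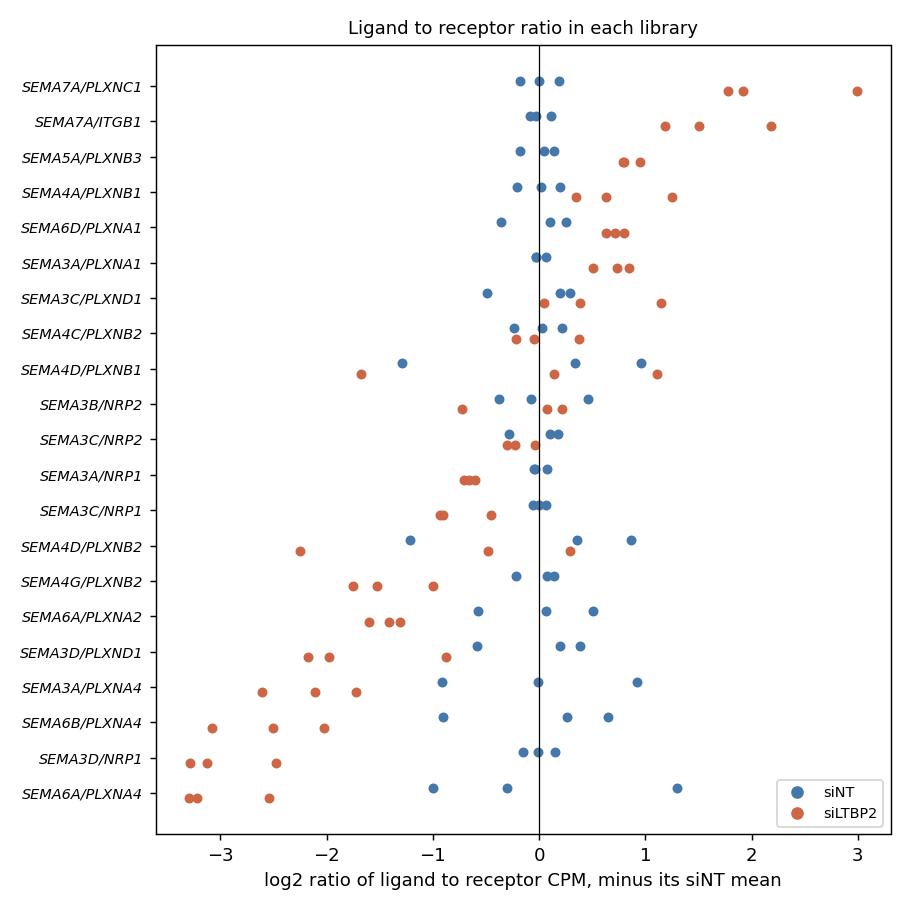
The log2 ratio of ligand to receptor CPM, less the siNT mean of the pair (horizontal axis), is plotted for the 21 pairs with both genes tested, with a point for each siNT library (blue) and siLTBP2 library (orange). *SEMA7A* with *PLXNC1* shifts to the right by 2.23, and *SEMA3D* with *NRP1* (-2.96) and *SEMA6A* with *PLXNA4* (-3.02) shift to the left, without overlap between groups.

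Other genes of the pathway were taken from 4 lists of 71 genes in all, chosen with earlier results of these data known. Of these, 58 were tested and 19 passed (32.8%, against 19.3% of all genes tested), 12 higher and 7 lower, where 9.76% of all genes were higher and 9.51% lower. Among co-receptors and other receptors, 9 of 18 were tested, 3 were higher (*ITGB1*, *MET* and the adhesion molecule *L1CAM*) and 2 lower (*ITGA1* and the VEGF receptor *FLT1*). *MET*, the HGF receptor that associates with B-type plexins, was deregulated, rising from 117, 94.1 and 134 CPM to 266, 274 and 336 CPM (log2 fold change 1.34, standard error 0.14, adjusted p = 0.000156). Of 38 genes of intracellular signalling, 34 were tested, 7 were higher and 4 lower. The higher ones were the small GTPases *RAC1*, *RRAS*, *RRAS2* and *RAP1B* and the kinases *FYN*, *PAK1* and *ROCK1*, with log2 fold changes between 0.37 and 0.62.

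The lower ones were *CRMP1* and *DPYSL4*, both of the collapsin response mediator family that relays SEMA3A signals to microtubules, *CDK5*, a kinase that acts on that family, and *MICAL1*, an actin-oxidising enzyme that binds plexins. The other tested members of the collapsin response mediator family, *DPYSL2* (507 ± 59.5 CPM in siNT, 594 ± 93.2 in siLTBP2, SD, n = 3) and *DPYSL3* (616 ± 31.2 and 693 ± 108), did not pass, with log2 fold changes of 0.23 and 0.17. *DPYSL4* was the other deregulated gene of the lists, falling from 40.0, 26.9 and 28.9 CPM to 15.6, 12.8 and 10.99 CPM (log2 fold change -1.28, standard error 0.17, adjusted p = 0.000624). Of 8 proteases that process semaphorins or their receptors, *ADAM17* and *MMP14* were higher (log2 fold changes 0.71 and 0.83) and *FURIN*, which cleaves class 3 semaphorins, was lower (-0.84). Apart from *MET*, *DPYSL4*, *ITGB1*, *ITGA1*, *VEGFA* and *VEGFC*, the genes of these lists were chosen for naming after their values had been seen.

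One sequence feature was looked up in the 3′ UTRs of the members. The 7-base word GCACCCA was chosen because an earlier look at these same data had linked it to lower levels in siLTBP2. Across the tested genes its 1455 carriers lay at -0.15 (median log2 fold change) and genes without it at 0.02. The word is in the 3′ UTR of 11.8% of the 12314 tested genes with one, and of 5 of the 27 tested members: *PLXNA1* (2 copies), *PLXNA3*, *PLXNA4*, *SEMA4C* and *SEMA6A*. The sites of the carriers that passed the test are shown with the word in capitals.
*PLXNA3*: cgaggttgtgGCACCCAtcatggtgca
*PLXNA4*: catgatccctGCACCCAaagccagccc
*PLXNA3* was lower and *PLXNA4* higher in siLTBP2. Of the 5 lower members *PLXNA3* alone carries the word, and *SEMA3D* and *SEMA4G*, the lower members with the largest changes, do not. Whether the word has any part in these levels was not tested.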

How the data were processed

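RNA sequencing libraries of CCD18Co cells were analysed. Per the submitters' notes and the study's methods, paired reads of ribosomal RNA depleted, stranded libraries were aligned to GRCh38 with STAR 2.7.1a in 2-pass mode, and the authors deposited raw counts per gene from HTSeq 0.11.2. For the annotation release and for the strand setting of the counting, nothing is stated (not given in the sources used here). Of the table's genes, 27067 were at 0 in all libraries, and the 16920 genes kept by filterByExpr were tested in edgeR 4.0.16 under R 4.3.3, with TMM factors and a two-sided quasi-likelihood test (glmQLFTest) on all 6 libraries without a block, with Benjamini-Hochberg adjustment over these genes. A standard error is the ratio of the log2 fold change to √F. Ligand to receptor ratios used a prior count of 2 and an exact permutation test. Exon lengths, positions and 3′ UTRs were from GENCODE 44, where 60462 identifiers of the table were found and 29 of 31 members had the start given in the table. Promoters were from RefSeq (27 of 31 members matched). Every member is named or counted, with values in every library for members that passed and for *NRP1*, *NRP2*, *PLXNC1* and *PLXND1*, and of the listed partners for deregulated genes, *ITGB1*, *ITGA1*, *VEGFA* and *VEGFC*. Members and lists were chosen with earlier results of these data known. Replicates of a group differed by more than sampling noise (chi-square per degree of freedom 16.6 to 32.6). The steps were tested on simulated data. Alternatives were the likelihood ratio test, DESeq2 1.42.0, RLE, total-count and upper-quartile scaling, 2 other filters, a replicate block, a prior count of 0.5 and leaving out each library.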

Additional observations from a re-analysis of the deposited data

How the results depend on the processing

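Under the alternatives the direction of all 12 members that passed was kept, and *SEMA7A*, *SEMA3D*, *NRP1*, *NRP2*, *PLXNA4*, *SEMA4G*, *SEMA3A*, *PLXNB1* and *PLXNB3* passed in each. Of the 2 members deregulated and lower, 1 was left with a filter of 1 CPM in 3 libraries, and between 1 and 2 when 1 library was left out: *SEMA4G* lost that call without replicate 1 of either group or replicate 2 of siNT. Of the 3 deregulated and higher, *PLXNA4* lost it without siNT replicate 2, and *PLXNA2* was added by the likelihood ratio test, DESeq2, no filter and the replicate block. *SEMA3B*, which did not pass, did so with no filter, with the replicate block and without siLTBP2 replicate 3. With the replicate block, 22 partner genes passed as higher (12 without it) and 11 as lower (7 without it), and 9 members as higher and 5 as lower. The share of all genes tested that passed with the block was not taken. These counts are therefore a description only and cannot be read as particular to the partners or members. The labels give a siNT and a siLTBP2 library the same replicate number and neighbouring library numbers, but do not say whether they were paired. Same-numbered libraries deviated together with correlations of 0.30, 0.08 and 0.43, against -0.39 to 0.10 for libraries with different numbers. For siNT replicate 2 the correlation was 0.08 with its own number and 0.10 with siLTBP2 replicate 1. Whether the libraries were handled in pairs was not tested. Some members that did not pass changed direction on leaving out 1 library, where the log2 fold change ran from -0.018 to 0.23 for *PLXNB2*, -0.27 to 0.093 for *PLXND1*, -0.19 to 0.41 for *SEMA4A*, -0.20 to 0.052 for *SEMA4B*, -1.41 to 0.029 for *SEMA4D*, -0.14 to 0.39 for *SEMA6B* and -0.38 to 0.0035 for *SEMA6C*. The cause was not tested. Other scalings moved the median of all genes by at most 0.038 on the log2 scale. No ratio could pass under any setting. Of the pairs whose groups overlapped, the difference between groups changed sign on leaving out a library for *SEMA3B* to *NRP2* (up to 0.15), *SEMA4C* to *PLXNB2* (down to -0.13) and *SEMA4D* to *PLXNB1* (up to 0.62). Which genes depth limited most was not tested.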
